A study of Mus musculus with 9 samples.

Results

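Apoptosis and lytic cell death were described here through 33 mouse genes, listed by name for their known function, with earlier results of these arrays known: BCL2 family proteins, caspases, inhibitor of apoptosis proteins, the death receptor complex, and the proteins of necroptosis and pyroptosis. Of these, 31 had a probe set assigned to them alone on the array, out of 19938 genes tested in all, and Bax and Ripk1 were not analysed here. The study profiled 3 sorted mouse cell populations, each on 3 Affymetrix gene arrays that its titles call biological replicates. T cell zone macrophages (TZM) came from lymph node and were gated as GFP-high, MertK+, CD169- and CD11b+. Brain macrophages, called microglia in the titles, were gated as GFP-high, CD11b+ and CD45+. CD8a+ dendritic cells (DC) were gated as CD64-, CD11c-high, MHCII-high and CD8a+, and their tissue is given as lymph node in the sample fields but as spleen in the sorting protocol. All mice of all groups carried the genotype CX3CR1 gfp+/-, in which GFP stands in 1 copy of Cx3cr1, so no array comes from cells with both copies intact. Tissues were digested with DNase I and collagenase I before bead enrichment and sorting, which all groups share. Age, sex, and whether an array holds 1 animal or a pool are not given in the sources used here, so the p-values measure the spread between these arrays only.

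In the mitochondrial pathway of apoptosis, BH3-only proteins neutralise pro-survival BCL2 proteins or directly engage BAX and BAK, which then open the outer mitochondrial membrane. Released cytochrome c joins APAF1 and caspase-9 in the apoptosome, and released Smac relieves the block that inhibitor of apoptosis proteins place on caspases. In the death receptor pathway, ligand-bound FAS recruits FADD and caspase-8, with c-FLIP as a modulator. Lytic forms of death run through RIPK3 and MLKL in necroptosis, or through inflammatory caspases and gasdermin D in pyroptosis. Macrophages take up dying cells, including dying lymphocytes in lymph node, and mature dendritic cells are known as short-lived.

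The deposited values were log2 levels after RMA, a method that corrects background, normalizes the arrays together and summarises the probes of a set. They ran from 2.04 to 13.61, with array medians over the genes between 4.90 and 5.02. Arrays of the same population correlated at 0.982 to 0.993 in TZM, 0.992 to 0.995 in DC and 0.989 to 0.993 in microglia, across genes. The labels held against defining markers. The mean level of 10 macrophage and gate genes was 10.10 to 10.39 in TZM, 11.28 to 11.36 in microglia and 5.13 to 5.34 in DC, that of 9 CD8a+ dendritic cell genes was highest in DC at 9.57 to 9.68, and that of 7 measured microglia genes was highest in microglia at 11.14 to 11.22. Some genes of other cells moved within a group. The neutrophil gene S100a8 was 5.89, 9.28 and 7.32 in TZM arrays 1, 2 and 3, and the salivary gland gene Bpifa2 was 10.24, 12 and 9.29, both highest in array 2, while the choroid plexus gene Ttr was 12.15, 5.48 and 11.83 in the microglia arrays. Mean levels over the whole lists were 5.13 to 6.13 in TZM, 3.88 to 4.0 in DC and 3.79 to 3.87 in microglia for 8 neutrophil genes, 5.95 to 7.30, 3.77 to 3.92 and 3.71 to 3.79 for 6 salivary genes, and 4.05 to 4.44, 4.03 to 4.26 and 4.48 to 6.41 for 5 measured choroid plexus genes. A list of 25 measured immediate early genes, known to respond to tissue digestion, averaged 8.76 to 8.95 in TZM, 9.40 to 9.46 in DC and 9.93 to 9.99 in microglia. A list of 22 measured interferon-stimulated genes averaged 6.91 to 7.29, 5.90 to 6.01 and 5.66 to 5.88. The part of these lists in the results that follow was not tested. Without TZM array 2, the fits called 8, 6 and 11 death genes for TZM against DC, TZM against microglia and microglia against DC. TZM arrays 1 and 3, which stayed in those fits, still had high Bpifa2. Leaving out microglia arrays 1 and 3 together kept only the other microglia array, so no count is given for that fit.

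A gene was called when its adjusted p was under 0.05 (limma, Benjamini-Hochberg over the 19938 genes) and its difference was at least 1 on the log2 scale. In bulk RNA of a sorted population, fewer cells expressing a gene and less RNA per cell cannot be told apart. TZM differed from DC in 8 of the 31 death genes, 5 higher (Bcl2, Bcl2l1, Ripk3, Mlkl, Casp4) and 3 lower (Bak1, Apaf1, Casp6). Over all genes 8.74% were called in this comparison, 4.71% higher and 4.03% lower. TZM differed from microglia in 5 members, with Fas, Ripk3, Mlkl and Pmaip1 higher and Casp8 lower, where 7.65% of all genes were called, 4.25% higher and 3.40% lower. Microglia differed from DC in 11 members, 3 higher (Bcl2l1, Casp8, Casp4) and 8 lower (Bak1, Pmaip1, Apaf1, Birc2, Birc3, Fas, Casp6, Ripk3), where 11.2% of all genes were called, 5.15% higher and 6.01% lower. As shares of the 31, these counts are 25.8%, 16.1% and 35.5%. The shares over all genes include many dim genes. A log2 level of 6 in at least 3 arrays was reached by 24 of the 31 members and 7678 of the 19938 genes. With only these tested, 7, 4 and 11 of the 24 members and 1525, 1341 and 1981 of the 7678 genes were called. For TZM against microglia the members were then called no more often than the genes as a whole.

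The set did not move as a block. The median difference of the members was 0.05 for TZM against DC, 0.06 for TZM against microglia and -0.02 for microglia against DC, beside 0.02, 0.01 and 0.01 over all genes. The median size of the difference, sign left aside, was 0.51, 0.30 and 0.35 in the members and 0.13, 0.13 and 0.14 over all genes, dim ones included. Among the 8 pro-survival members, TZM had 2 called higher and 0 called lower than DC, and against microglia none was called in either direction. Among the 23 pro-death members, TZM had 3 called higher and 3 lower than DC, and 4 higher and 1 lower than microglia. Microglia had 1 pro-survival member called higher and 2 lower than DC, with 2 pro-death members higher and 6 lower. Over all genes, between 3.40% and 6.01% were called in a given direction of a comparison. With 8 pro-survival genes, 0 calls against microglia says little. In all, 13 members were called in at least 1 comparison, as were 15.4% of all genes, dim ones included. The other 18 members were called in none, and 6 of those 18 (Bcl2l2, Bok, Bik, Bbc3, Casp9, Casp12) did not reach a log2 level of 6 in 3 arrays.

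**Figure D1:**
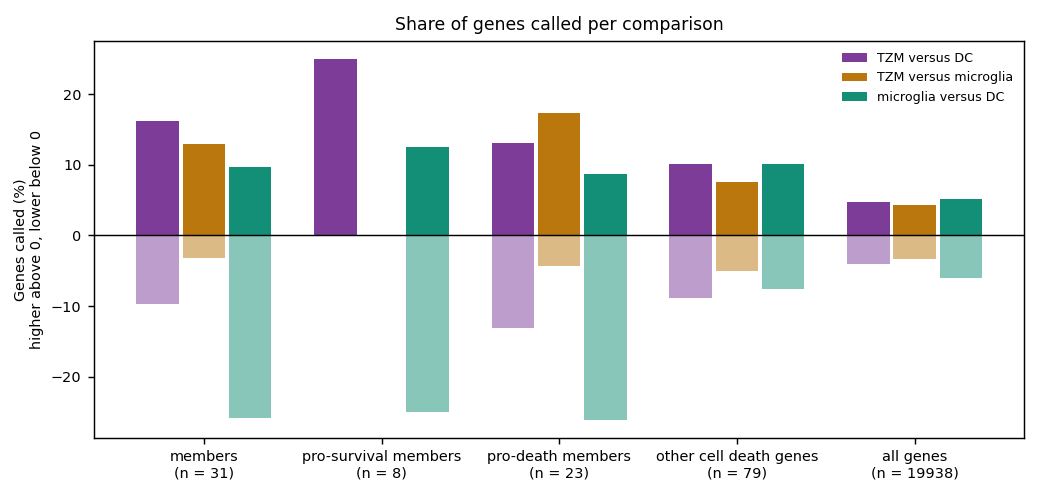
Share of genes called in each comparison (percent; y axis), higher above 0 and lower below 0, for the members, the pro-survival and pro-death members, other cell death genes and all genes, with the number measured under each set. Members were called at 25.8%, 16.1% and 35.5% for TZM against DC, TZM against microglia and microglia against DC, beside 8.74%, 7.65% and 11.2% of all genes.

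**Figure D2:**
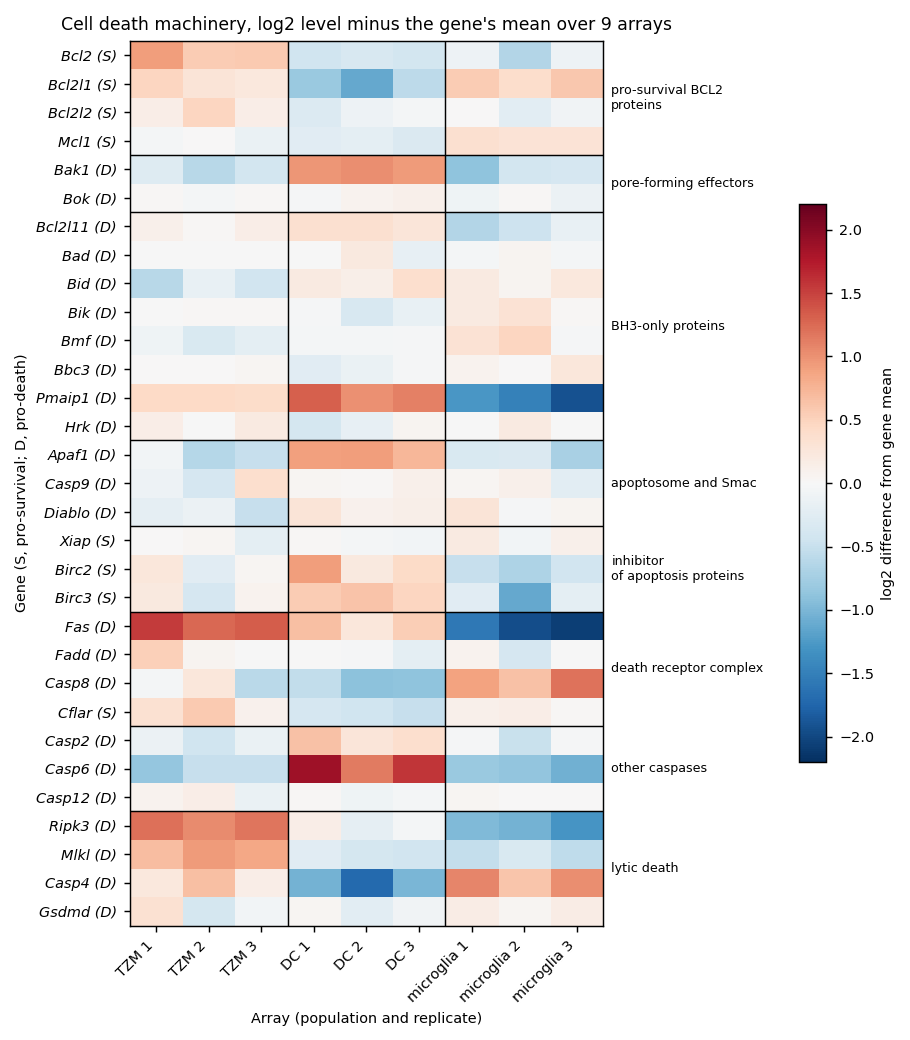
Log2 level of each member on each of the 9 arrays, minus the gene's mean over the arrays (colour scale), with members in rows by role, marked S for pro-survival and D for pro-death, and arrays in columns by population. The contrast between populations is clearest in rows such as Fas, Pmaip1, Casp6 and Ripk3, whereas rows such as Bad, Xiap and Casp12 are nearly even.

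The pro-survival BCL2 proteins differed in which population held most of each. Bcl2, the founding member of the family, was 7.26, 6.90 and 6.92 on the TZM arrays, 5.90, 5.98 and 5.94 on the DC arrays and 6.22, 5.70 and 6.23 on the microglia arrays. Every TZM array lay above every array of the other populations, while DC and microglia overlapped. TZM exceeded DC by 1.09 (SE 0.15, 2.12-fold, adjusted p = 0.0012). TZM exceeded microglia by 0.98 (SE 0.15, adjusted p = 0.0023), just under the minimum difference. Both calls sat at that limit: without TZM array 1 the difference from DC was 0.97 and not called, and without TZM array 2 or 3, or microglia array 1 or 3, the difference from microglia was 1.03 to 1.07 and called. Lymphocytes also express Bcl2, and the mean level of 9 measured T cell genes was 5.04 to 5.16 in TZM, 4.33 to 4.47 in DC and 4.20 to 4.25 in microglia. Most of that gap lay in Cd28, a costimulatory receptor gene, at 9.07 ± 0.49 in TZM against 4.23 ± 0.04 in DC and 4.24 ± 0.19 in microglia (SD, n = 3 each), the 1 gene of the list called between TZM and DC. Without Cd28, the mean of the other 8 was 4.53 to 4.74 in TZM, 4.35 to 4.50 in DC and 4.22 to 4.24 in microglia. The TZM minus DC difference was 0.79 for Cd3d, 0.53 for Cd3e and 0.87 for Cd3g, subunits of the T cell receptor complex, but -0.68 for Cd5, and it lay between -0.06 and 0.08 for Bcl11b, Themis, Trat1 and Cd6. Against microglia, Cd3d (1.2), Cd3g (1.15) and Cd28 (4.84) were called higher in TZM. The mean of 8 measured B cell genes was 5.55 to 5.69 in TZM, 5.33 to 5.40 in DC and 4.70 to 4.88 in microglia. TZM had 2 of them called higher and 2 lower than DC, and 2 higher and 0 lower than microglia. Mean levels in TZM and DC were 9.27 and 6.63 for Cd79b and 7.62 and 5.45 for Cd22, but 4.82 and 7.11 for Ms4a1 and 5.01 and 6.88 for Fcrla. The part of T cell or B cell RNA in the Bcl2 difference was not tested.

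Bcl2l1, which encodes BCL-XL, was shared by both macrophage populations. It was 8.09, 7.90 and 7.84 in TZM, 8.17, 7.99 and 8.21 in microglia, and 6.79, 6.48 and 7.03 in DC. Each macrophage array lay above each DC array, and TZM and microglia overlapped. The excess over DC was 1.18 in TZM (SE 0.14, 2.26-fold, adjusted p = 3.9e-04) and 1.36 in microglia (SE 0.14, 2.56-fold, adjusted p = 1.2e-04), and TZM minus microglia was -0.18 (95% interval -0.50 to 0.14, adjusted p = 0.47).

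Mcl1, a short-lived pro-survival protein on which many immune cells depend, had narrow groups: 10.92 ± 0.08 in TZM, 10.72 ± 0.05 in DC and 11.30 ± 0.03 in microglia (SD, n = 3 each). The 3 groups did not overlap, with microglia highest and DC lowest. None of its differences reached the minimum: microglia exceeded DC by 0.58 (1.49-fold, adjusted p = 1.3e-04) and TZM lay between them. Bcl2l2, which encodes BCL-W, lay low throughout, with 5.06 ± 0.19 in TZM, 4.65 ± 0.13 in DC and 4.71 ± 0.12 in microglia (SD, n = 3 each). Its largest difference was 0.41, TZM over DC, with an adjusted p of 0.037 and under the minimum.

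**Figure D3:**
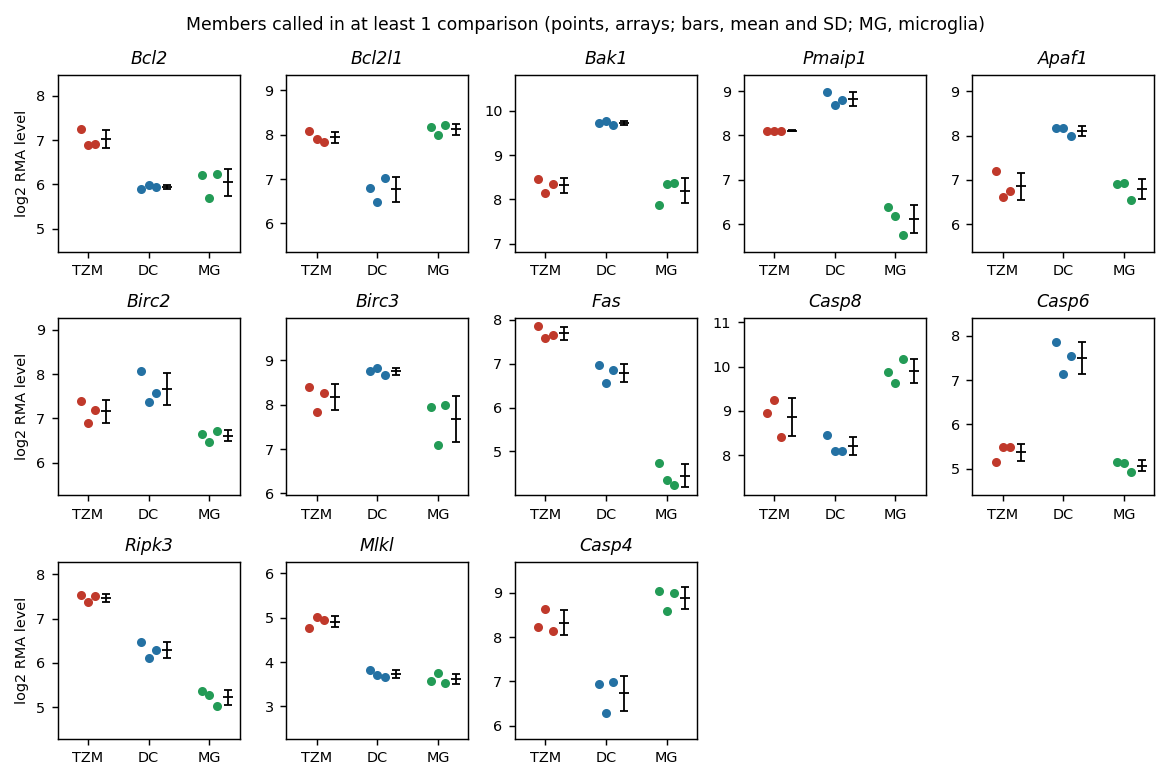
Log2 RMA level (y axis) on each array (points) with the mean and SD (bars) in TZM, DC and microglia (MG), n = 3 each, for the 13 members called in at least 1 comparison. The panels are centred at different levels but span nearly the same log2 range, so differences can be compared between panels and heights cannot. TZM arrays lie above all others for Bcl2, Fas, Ripk3 and Mlkl, and DC arrays lie above all others for Bak1, Pmaip1, Apaf1, Birc3 and Casp6.

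Of the pore-forming effectors measured, Bak1 was present in all 3 populations and highest in DC. Its levels were 9.72, 9.77 and 9.69 in DC, 8.47, 8.14 and 8.34 in TZM, and 7.87, 8.35 and 8.37 in microglia. DC stood clear of both macrophage populations, which overlapped each other. TZM lay below DC by 1.41 (a log2 difference of -1.41, SE 0.14, 2.66-fold, adjusted p = 1.4e-04), and microglia differed from DC by -1.53 (SE 0.14, 2.89-fold, adjusted p = 6.4e-05). TZM minus microglia was 0.12 (95% interval -0.20 to 0.45). Bok, a related effector, was near 5 in all 3 populations, with 5.03 ± 0.04 in TZM, 5.08 ± 0.07 in DC and 4.96 ± 0.08 in microglia (SD, n = 3 each), and was called in no comparison.

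Among the 8 BH3-only genes, the upstream triggers of this pathway, 1 was called. Pmaip1 encodes NOXA, which binds chiefly MCL1. It was 8.99, 8.68 and 8.79 in DC, 8.11, 8.11 and 8.09 in TZM, and 6.39, 6.19 and 5.76 in microglia. The 3 populations were fully separated, in that order. TZM exceeded microglia by 1.99 (SE 0.15, 3.98-fold, adjusted p = 3e-05), and microglia differed from DC by -2.71 (SE 0.15, 6.53-fold, adjusted p = 2.7e-06). The step from TZM to DC, -0.72 (95% interval -1.06 to -0.37, adjusted p = 0.0095), was under the minimum. Microglia, with the highest Mcl1, had the lowest Pmaip1.

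Bcl2l11, which encodes BIM, an activator that engages all pro-survival members, was 7.57 ± 0.06 in TZM, 7.79 ± 0.05 in DC and 7.05 ± 0.24 in microglia (SD, n = 3 each). Its arrays were also ranked DC, TZM, microglia without overlap, but over a smaller span: microglia minus DC was -0.74 (SE 0.11, adjusted p = 0.0012) and TZM minus microglia was 0.52 (SE 0.11, adjusted p = 0.012). Bid, whose product caspase-8 cleaves to link the death receptor to mitochondria, was lowest in TZM at 5.74 ± 0.22, against 6.37 ± 0.13 in DC and 6.30 ± 0.10 in microglia (SD, n = 3 each). TZM minus DC was -0.64 (SE 0.12, adjusted p = 0.0055) and TZM minus microglia was -0.56 (SE 0.12, adjusted p = 0.011), both under the minimum. Bmf, whose product responds to loss of attachment, was 6.55 ± 0.12 in TZM, 6.73 ± 0.02 in DC and 7.02 ± 0.26 in microglia (SD, n = 3 each). TZM minus microglia was -0.47 for Bmf (SE 0.13, adjusted p = 0.03), under the minimum. The group means of the other 4 BH3-only genes spanned at most 0.35. Bad ranged between group means of 6.18 and 6.20, with a TZM minus DC interval of -0.24 to 0.21. Hrk had group means of 6.47 in TZM, 6.19 in DC and 6.41 in microglia. Bik (group means 4.72, 4.53 and 4.88) and the p53 target Bbc3, which encodes PUMA (5.20, 5.03 and 5.29), lay low in every population. Microglia minus DC was 0.35 for Bik (adjusted p = 0.032) and 0.26 for Bbc3 (adjusted p = 0.052), both under the minimum.

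Downstream of mitochondria, the gene of the apoptosome scaffold was again highest in DC. Apaf1 was 8.16, 8.18 and 7.98 in DC, 7.20, 6.62 and 6.74 in TZM, and 6.91, 6.94 and 6.54 in microglia. Both macrophage populations lay below all DC arrays and overlapped each other. TZM minus DC was -1.25 (SE 0.17, 2.38-fold, adjusted p = 7.4e-04), and microglia minus DC was -1.31 (SE 0.17, 2.48-fold, adjusted p = 4.2e-04). Casp9, the initiator caspase that APAF1 activates, was 5.72 ± 0.37 in TZM, 5.82 ± 0.04 in DC and 5.73 ± 0.18 in microglia (SD, n = 3 each), and its TZM minus DC interval ran from -0.50 to 0.30. Diablo, which encodes Smac, was 6.72 ± 0.20 in TZM, 7.16 ± 0.10 in DC and 7.11 ± 0.16 in microglia (SD, n = 3 each). TZM minus DC was -0.44 for Diablo (SE 0.12, adjusted p = 0.03), under the minimum.

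Casp6, a caspase of the executioner class, gave the widest gap between DC and TZM among the members. It was 7.85, 7.13 and 7.55 in DC, 5.14, 5.48 and 5.48 in TZM, and 5.16, 5.12 and 4.93 in microglia. DC stood apart from both macrophage populations, whose arrays overlapped. TZM minus DC was -2.14 (SE 0.18, 4.41-fold, adjusted p = 4.5e-05) and microglia minus DC was -2.44 (SE 0.18, 5.43-fold, adjusted p = 1.5e-05). Casp2, an initiator-type caspase linked to the DNA damage response, was also highest in DC, by a smaller amount, with 6.21 ± 0.20 in DC, 5.53 ± 0.17 in TZM and 5.59 ± 0.27 in microglia (SD, n = 3 each). TZM minus DC was -0.68 for Casp2 (SE 0.16, adjusted p = 0.015). Casp12, a caspase associated with the endoplasmic reticulum, was near the bottom of the scale in all populations, with 3.05 ± 0.15 in TZM, 2.98 ± 0.06 in DC and 3.04 ± 0.02 in microglia (SD, n = 3 each).

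The inhibitor of apoptosis genes divided. Xiap, whose product binds active caspases directly, was level, with 6.64 ± 0.14 in TZM, 6.66 ± 0.05 in DC and 6.77 ± 0.13 in microglia (SD, n = 3 each), with a TZM minus DC interval of -0.23 to 0.18. Birc2 and Birc3 encode cIAP1 and cIAP2, ubiquitin ligases of the TNF receptor complex. Birc2 was 8.06, 7.36 and 7.57 in DC, 7.39, 6.89 and 7.19 in TZM, and 6.64, 6.47 and 6.72 in microglia. Birc3 was 8.76, 8.83 and 8.67 in DC, 8.41, 7.84 and 8.27 in TZM, and 7.96, 7.08 and 7.99 in microglia. In both genes DC had the highest mean and microglia the lowest, TZM overlapped DC for Birc2 and microglia for Birc3, and microglia overlapped DC for neither. Microglia minus DC was -1.05 for Birc2 (SE 0.19, 2.07-fold, adjusted p = 0.0033) and -1.08 for Birc3 (SE 0.25, 2.11-fold, adjusted p = 0.012). Both were close to the minimum. The Birc2 call was lost without DC array 1 (-0.86) or microglia array 2 (-0.98), and the Birc3 call without microglia array 2 (-0.78), the microglia array with low Ttr. The Birc2 probe sets disagreed, since the dimmer one gave -0.46 for microglia minus DC and 0.15 for TZM minus DC, against -0.51 for the one used. Birc2 and Birc3 are neighbours in RefSeq's gene order and close in sequence, so RNA of one may bind probes of the other.

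In the death receptor complex, the receptor itself differed most. Fas was 7.86, 7.58 and 7.65 in TZM, 6.97, 6.57 and 6.86 in DC, and 4.74, 4.36 and 4.24 in microglia. The 3 populations were fully separated, TZM above DC and both above microglia. TZM exceeded microglia by 3.25 (SE 0.15, 9.51-fold, adjusted p = 1.9e-06). Microglia minus DC was -2.35 (SE 0.15, 5.11-fold, adjusted p = 7.7e-06). The microglia level lay under the array medians of 4.90 to 5.02 and was not shown to be above background, so the folds against it are those of the measured values and not exact. The same holds for Mlkl in DC and microglia, Gsdme in TZM, Bcl2l14 in TZM and microglia, and Traf1 in microglia. The means of Mlkl in TZM (4.91), Birc5 in microglia (4.97) and Card6 in TZM (5.01) lay within the range of those medians. Those of Casp6 (5.07) and Ripk3 (5.22) in microglia lay little above it, so folds against them may also be inexact. The step in Fas from DC up to TZM was 0.90 (95% interval 0.54 to 1.25, 1.86-fold, adjusted p = 0.0034), under the minimum. T cells also express Fas, and the T cell genes given with Bcl2, with Cd28 carrying most of the gap in their mean, bear on this gene too. Their part was not tested.

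Fadd, the adaptor that joins FAS to caspase-8, was 6.85 ± 0.29 in TZM, 6.58 ± 0.12 in DC and 6.56 ± 0.24 in microglia (SD, n = 3 each), with no adjusted p under 0.3. Casp8, the initiator caspase of this pathway and a restraint on necroptosis, ran in the opposite direction to Fas in microglia. It was 9.87, 9.63 and 10.18 in microglia, 8.95, 9.24 and 8.40 in TZM, and 8.45, 8.09 and 8.10 in DC. Microglia lay above every other array, while TZM and DC overlapped. Microglia exceeded DC by 1.68 (SE 0.23, 3.21-fold, adjusted p = 6.1e-04). TZM minus microglia was -1.03 (SE 0.23, 2.04-fold, adjusted p = 0.012), a call that was lost without TZM array 3 (-0.80) or without microglia array 3 (-0.89). This difference was -0.77 with microglia arrays 1 and 3 left out together, which kept only the other microglia array. TZM minus DC was 0.65 (95% interval 0.13 to 1.17, adjusted p = 0.085).

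Cflar encodes c-FLIP, the caspase-8 relative that at high level blocks caspase-8 activation, and lies next to Casp8 in RefSeq's gene order. It was highest in TZM at 10.35 ± 0.24, against 9.58 ± 0.07 in DC and 10.11 ± 0.07 in microglia (SD, n = 3 each). The TZM excess over DC was 0.76 (SE 0.11, 1.70-fold, adjusted p = 0.0015), and microglia exceeded DC by 0.53 (SE 0.11, adjusted p = 0.0091), both under the minimum. The 3 Cflar probe sets gave 0.75, 0.76 and 0.99 for TZM minus DC and 0.58, 0.53 and 1.07 for microglia minus DC. All 3 put both macrophage populations above DC, and they disagreed in sign between TZM and microglia, at 0.17, 0.24 and -0.08.

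The lytic death genes included Ripk3 and Mlkl, kinase and executioner of necroptosis, both called higher in TZM than in either other population. Ripk3 was 7.53, 7.37 and 7.50 in TZM, 6.47, 6.12 and 6.28 in DC, and 5.36, 5.28 and 5.02 in microglia. All 3 populations were separated, with TZM highest and microglia lowest. TZM exceeded DC by 1.18 (SE 0.12, 2.26-fold, adjusted p = 1.4e-04) and microglia by 2.24 (SE 0.12, 4.73-fold, adjusted p = 3.4e-06). Microglia minus DC was -1.07 (SE 0.12, 2.10-fold, adjusted p = 1.8e-04), a call lost without DC array 1 (-0.98) or microglia array 3 (-0.97). Mlkl, which RIPK3 phosphorylates and which then permeabilises the plasma membrane, was 4.77, 5.02 and 4.94 in TZM, 3.83, 3.70 and 3.67 in DC, and 3.57, 3.75 and 3.53 in microglia. TZM stood above all other arrays, and DC and microglia overlapped. TZM exceeded DC by 1.18 (SE 0.09, 2.27-fold, adjusted p = 2.8e-05) and microglia by 1.29 (SE 0.09, 2.45-fold, adjusted p = 1.9e-05). Mlkl stayed under a log2 level of 6 on every array, so it was called only with no filter on level. Zbp1, a nucleic acid sensor that can engage RIPK3, was 7.89 ± 0.10 in TZM, 7.03 ± 0.21 in DC and 5.29 ± 0.33 in microglia (SD, n = 3 each). It is also an interferon-stimulated gene. Of the 22 measured genes of the interferon-stimulated list, 12 were called higher and 1 lower in TZM than in DC. Against microglia, 13 were called higher and 0 lower. Over all genes, 4.71% and 4.25% were called higher in these comparisons. The part of interferon in the Zbp1 difference was not tested.

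Pyroptosis genes gave another order. Casp4, the gene of mouse caspase-11, which senses cytosolic lipopolysaccharide and cleaves gasdermin D, was 9.05, 8.59 and 9.0 in microglia, 8.22, 8.64 and 8.13 in TZM, and 6.95, 6.28 and 6.98 in DC. Both macrophage populations lay above every DC array, and they overlapped each other in a single TZM array. TZM exceeded DC by 1.59 (SE 0.22, 3.01-fold, adjusted p = 0.0011), and microglia exceeded DC by 2.14 (SE 0.22, 4.41-fold, adjusted p = 1.3e-04). TZM minus microglia was -0.55 (95% interval -1.06 to -0.04, adjusted p = 0.14). Casp4 lies between Casp1 and Casp12 in RefSeq's gene order, and these related genes could share hybridisation. Casp1 was 8.0 ± 0.43 in TZM, 6.81 ± 0.33 in DC and 7.63 ± 0.05 in microglia (SD, n = 3 each), called higher in TZM than in DC at 1.19 (SE 0.22, adjusted p = 0.0053), while Casp12 was level. Gsdmd, the pore that Casp4 and Casp1 release, was close to level across the populations. It was 7.44 ± 0.35 in TZM, 7.39 ± 0.15 in DC and 7.61 ± 0.07 in microglia (SD, n = 3 each), and its TZM minus DC interval was -0.32 to 0.43.

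Promoter sequence is shown for Fas, Ripk3, Mlkl and Casp4, which with Casp8 are the death receptor and lytic genes called in at least 2 of the 3 comparisons. These 4 were chosen after their values were seen. The arrays measure RNA and not binding, so the sequences are context only. Each run is the 250 bases before the start in the RefSeq promoter table of build GRCm38.p6, 5′ to 3′ on the gene's strand. Capitals mark matches on either strand to the kappa B pattern, GGG, any 5 bases, CC. A match on the opposite strand reads GG, any 5 bases, CCC here.
Fas, chr19:34290409-34290658, plus strand: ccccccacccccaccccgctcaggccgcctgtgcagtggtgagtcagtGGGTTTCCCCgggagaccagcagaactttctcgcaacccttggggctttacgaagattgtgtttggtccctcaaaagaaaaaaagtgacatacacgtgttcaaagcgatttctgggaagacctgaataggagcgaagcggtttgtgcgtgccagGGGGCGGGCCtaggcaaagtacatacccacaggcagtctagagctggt
Ripk3, chr14:55788858-55789107, minus strand: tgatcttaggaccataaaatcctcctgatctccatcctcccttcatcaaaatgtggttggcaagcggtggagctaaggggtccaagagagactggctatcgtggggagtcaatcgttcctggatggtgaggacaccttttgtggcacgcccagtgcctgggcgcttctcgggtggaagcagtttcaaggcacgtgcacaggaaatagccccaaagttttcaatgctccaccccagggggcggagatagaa
Mlkl, chr8:111338206-111338455, minus strand: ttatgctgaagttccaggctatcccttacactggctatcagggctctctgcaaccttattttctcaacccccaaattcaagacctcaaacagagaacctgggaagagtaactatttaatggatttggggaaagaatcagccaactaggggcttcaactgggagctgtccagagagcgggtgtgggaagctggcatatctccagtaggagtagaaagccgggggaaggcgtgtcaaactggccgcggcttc
Casp4, chr9:5308599-5308848, plus strand: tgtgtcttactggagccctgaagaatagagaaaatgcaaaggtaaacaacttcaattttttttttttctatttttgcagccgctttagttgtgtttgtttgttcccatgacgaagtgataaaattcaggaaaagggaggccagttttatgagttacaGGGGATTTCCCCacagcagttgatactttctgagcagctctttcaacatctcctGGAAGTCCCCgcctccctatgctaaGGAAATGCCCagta
Fas held matches beginning 202 and 48 bases before the start. Casp4 held overlapping matches beginning 93, 92 and 91 bases before it and others at 39 and 14. The Ripk3 and Mlkl stretches held 0 matches to any of the 4 patterns searched, which says only that these letters are not in the window. In the table's 300-base windows, which add 50 bases after the start, both strands were searched, and the kappa B pattern was common, in 50.8% of 32851 promoters and in 31 of the 43 promoters that the table holds for 30 of the members. The interferon response pattern (GAAA, any 2 bases, GAAA) was in 3.44% of promoters and in 2 of the 43, those of Cflar and Ripk1. The Ets-IRF pattern (GGAA, any 2 bases, GAAA) was in 2.72% and in 1 of the 43, that of Birc2, and the Sp1 pattern GGGGCGGGG was in 11.4% and in 13 of the 43. Promoters of 1 gene can overlap and are not independent. Matches of these patterns can overlap one another.

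**Figure D4:**
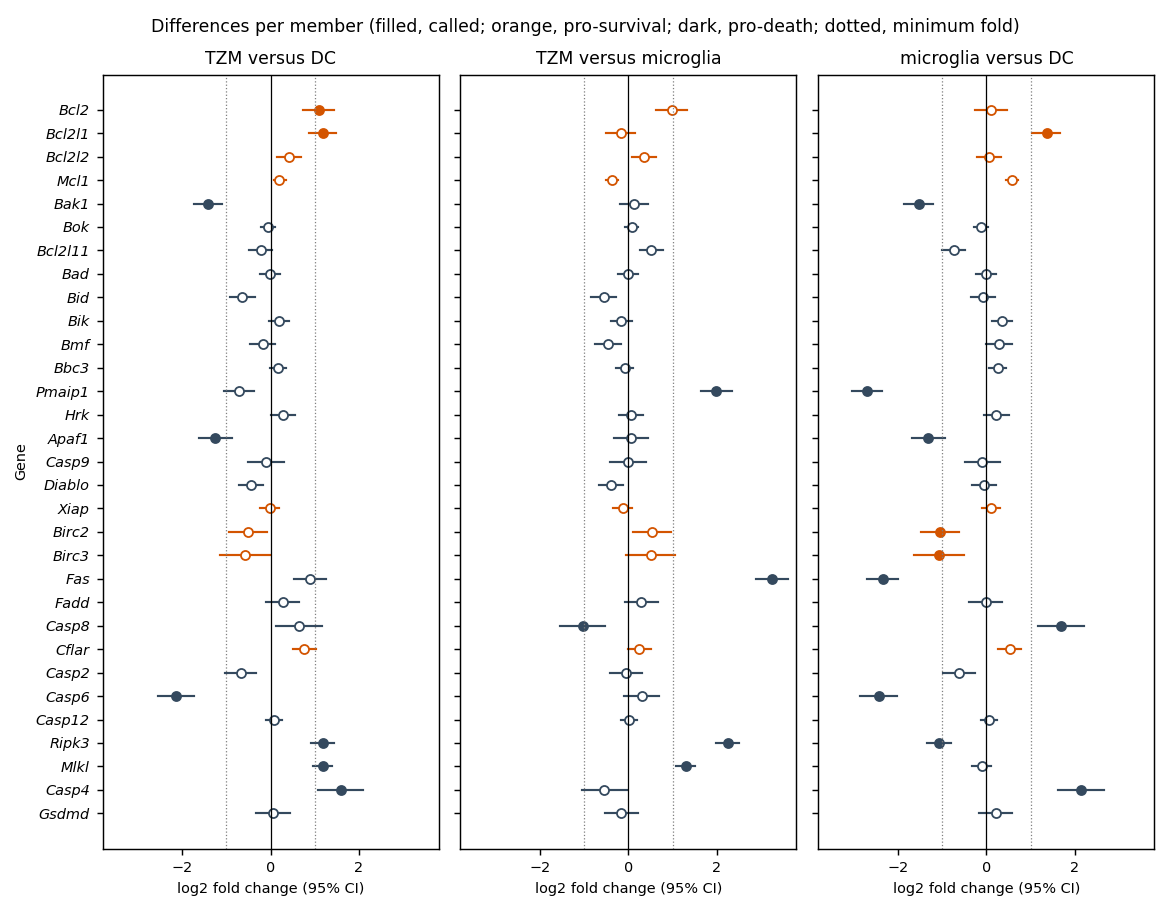
Log2 difference with its 95% interval (x axis) for each member (y axis) in TZM against DC, TZM against microglia and microglia against DC. Filled points were called, pro-survival members are orange and pro-death members dark, and dotted lines mark the minimum difference of 1. The farthest point right is Fas in TZM against microglia at 3.25, and the farthest left is Pmaip1 in microglia against DC at -2.71.

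Other genes of these pathways, 79 measured of 91 listed names, held 15 calls for TZM against DC (8 higher, 7 lower), 10 for TZM against microglia (6 higher, 4 lower) and 14 for microglia against DC (8 higher, 6 lower), or 19.0%, 12.7% and 17.7%. Their median differences were 0.03, 0.03 and -0.02. Largest among those higher in TZM than in DC was Ninj1, which drives rupture of the plasma membrane late in lytic death, at 9.12 ± 0.85 against 6.16 ± 0.19 (SD, n = 3 each), a difference of 2.96 (SE 0.35, adjusted p = 3.9e-04). It was followed by Pea15a, a death effector domain protein (2.47), the inflammasome sensor Naip2 (2.05) and the co-chaperone Bag3 (1.68). Lowest against DC was Gsdme, the gasdermin that caspase-3 cleaves, with 4.16 ± 0.26 in TZM, 6.79 ± 0.10 in DC and 6.35 ± 0.32 in microglia (SD, n = 3 each), with -2.62 against DC (adjusted p = 1.2e-05) and -2.19 against microglia (adjusted p = 4.6e-05). TZM were thus high for Ninj1 and low for Gsdme against both other populations. Bcl2l14, a BCL2 relative (-2.46), the TNF receptor adaptor Traf1 (-1.99) and Tnf itself (-1.37) were also lower in TZM than in DC.

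Against microglia, TZM were higher for Zbp1 at 2.60 (adjusted p = 1.2e-05), Traf1 at 2.29 (adjusted p = 2e-06), Ninj1 at 1.87 (adjusted p = 0.0059) and Tnip1, a partner of the ubiquitin-editing protein A20, at 1.33 (adjusted p = 9e-05). They were lower for Tnf at -2.10 (adjusted p = 3.7e-04), Dapk1, a death-associated kinase, at -1.09 (adjusted p = 0.0021), and Card6 at -1.08 (adjusted p = 0.0012), beside Gsdme. The ligand Tnf was 8.19 ± 0.32 in TZM, 9.56 ± 0.00 in DC and 10.29 ± 0.50 in microglia (SD, n = 3 each), the same order as the mean of the immediate early genes given above. Its part in the Tnf difference was not tested.

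Microglia exceeded DC for Ddit3, the stress transcription factor CHOP (2.14), Bag3 (2.0), Tnfaip3, which encodes A20 (1.81), and Naip2 (1.68). They were lower than DC for Traf1 (-4.28), Bcl2l14 (-2.67), Birc5, which encodes survivin and is high in dividing cells (-2.22), and Cycs, the cytochrome c gene (-1.94). All of these passed the call rule, with adjusted p of at most 1.3e-04. Traf1 was 7.02 ± 0.00 in TZM, 9.02 ± 0.24 in DC and 4.73 ± 0.07 in microglia (SD, n = 3 each), and so ranked DC, TZM, microglia, as Pmaip1 did.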

How the data were processed

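RNA of 3 sorted populations, 3 samples each, was hybridised to 1-colour mouse gene arrays. The deposited values are log2 levels made by the authors with RMA in Affymetrix Expression Console 1.3.1, per the submitters' processing notes, and the scanner files were not used here. RMA's joint normalization assumes similar distributions of level in all arrays, and it compresses differences of dim genes. Of 35556 probe sets, 21789 carried 1 symbol in the platform annotation, 1621 several and 12146 none, and only the first kind was used. The set with the highest mean over all arrays stood for a gene, which left 19938 genes. Symbols were updated to RefSeq by Entrez ID.

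All 9 arrays entered a limma 3.58.1 fit (R 4.3.3; lmFit and eBayes) with group as the only term. Adjusted p-values are Benjamini-Hochberg over the 19938 genes, and a call also needed a log2 difference of at least 1. Intervals are 95% from the same fit. The fit was tested on simulated data, and the outcome is not given here. Every member was named, and those called in at least 1 comparison were given per array. Of the other cell death genes, at most 4 called genes in each direction were named, by size. Members and lists were chosen with earlier results of these data known. Marker lists of other cells and states numbered 16. Those not described in the text (plasma and natural killer cells, plasmacytoid dendritic cells, erythroid cells, neurons and glia, endothelium and stroma) had at most 2 genes called in a direction in any comparison. Alternatives were other scalings, probe set rules, filters, fits, a block by replicate number, and leaving out arrays. Leaving out microglia arrays 1 and 3 together was chosen after seeing the data, and it kept only the other microglia array.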

Additional observations from a re-analysis of the deposited data

How the results depend on the processing

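Over 20 alternative settings, 1839 values of members were computed. Of these, 0 called differences changed sign, 24 values gained a call, 12 lost it, and 48 uncalled ones changed sign. Most of the gains came from dropping the minimum difference, which can only add calls. Members that the level filter removed, Mlkl among them, have no value there and are not counted as lost. With no minimum difference, 4025, 3873 and 5006 genes passed for TZM against DC, TZM against microglia and microglia against DC, and 16, 10 and 16 members. With every probe set tested, 2397 passed for TZM against DC (1123 higher, 1274 lower), 2333 for TZM against microglia (1081 higher, 1252 lower) and 3440 for microglia against DC (1534 higher, 1906 lower), which turned the balance of higher to lower in both TZM comparisons. Leaving out 1 array at a time gave 7 to 8, 5 to 6 and 9 to 11 called members. With a level filter, which 24 members and 7678 genes passed, there were 7, 4 and 11, beside 1525, 1341 and 1981 of those genes. Beyond the values given with each gene, the mean of probe sets lost Birc2 between microglia and DC (-0.75). Quantile normalization and array weights lost Birc3 there (-0.99 and -0.97). With microglia arrays 1 and 3 left out, which kept only the other microglia array, TZM minus microglia was 1.33 for Bcl2 and 1.09 for Birc3. The causes were not tested.

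With the replicate number as a block, 8, 5 and 11 members were called, and 1732, 1510 and 2213 genes. No member's call changed. Same-numbered arrays deviated together at correlations from -0.15 to 0.13 across genes. Deviations from means of 3 arrays are too constrained for this to decide whether the numbers pair the samples. With 3 arrays a group, differences near the minimum cannot be placed on one side of it. Genes near the low end of the scale, such as Mlkl and Casp12, have levels close to background, which the deposited values do not separate from no expression.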
